A study of Mus musculus with 24 samples.

Results

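Mammospheres grown from the mammary gland of Trp53 knockout mice were compared with mammospheres from wild-type mice by polyA RNA sequencing. The comparison uses 5 of the 24 libraries of the study, 2 from knockout and 3 from wild-type cultures, and covers the 14699 genes for which the authors' deposited table gives a mean in each group; entries for reads outside genes, ambiguous reads and reads without a unique alignment were left out. Mammospheres are clusters that single mammary cells form when they cannot attach to the dish, and they are passaged serially in serum-free medium with epidermal and fibroblast growth factors. All 5 cultures came from the normal mammary gland of FVB/Hsd mice aged 7 weeks, were untreated, and were collected 72 h after plating. The groups differed in more than genotype. The wild-type cells carried the empty lentiviral vector L-pWPI and were at sphere passage 3 (M3), whereas the knockout cells were not infected and were at passage 6 to 7 (M6-M7), so genotype, infection and passage cannot be told apart in any difference given here. The table's header calls the libraries biological replicates, and whether the 2 knockout cultures came from separate mice is not given in the labels.

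The p53 protein, encoded by Trp53, is a transcription factor that is kept scarce by the ubiquitin ligase Mdm2 and accumulates when DNA damage, oncogenes or culture stress block Mdm2. It then binds response elements near genes for cell cycle arrest, cell death, DNA repair and metabolism, and Mdm2 is itself a target, which closes a feedback loop. Cell cycle genes are lowered indirectly, largely because the p53 target Cdkn1a inhibits cyclin-dependent kinases and lets the retinoblastoma-like proteins and the DREAM complex hold those genes off. In mammary cultures p53 is known as a brake on the self-renewing divisions of sphere-forming cells.

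Values are the authors' group means of normalised counts, that is, read counts per gene scaled between libraries. Differences are given as the effect, log2 of the knockout mean plus 1 over the wild-type mean plus 1, so a negative effect is a lower level in the knockout. A gene is called when its adjusted p in the authors' deposited table is below 0.05, and a number after ± is a standard error, back-calculated from the log2 fold change and p-value of that table. Values per library are not in the table, so no spread within a group can be shown. Of the listed genes 6745 (45.9%) were called, 3279 (22.3%) higher and 3466 (23.6%) lower in the knockout. The median effect over all listed genes was 0.01, with quartiles of -0.53 and 0.46. Large changes were mostly decreases: 867 called genes had an effect of -3 or below and 171 an effect of 3 or above.

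The tissue label was checked against marker genes before the results. Several defining epithelial markers were nearly absent from the knockout spheres. Epcam, an epithelial adhesion protein, averaged 596 in wild type and 7.88 in the knockout. The luminal keratin Krt8 averaged 1062 in wild type and 33.5 in the knockout, and the basal keratin Krt14 246 in wild type and 1.02 in the knockout. Krt18, the partner keratin of Krt8, averaged 812 in wild type and 1559 in the knockout and did not pass (adjusted p = 0.57 in the authors' deposited table). The mesenchymal genes Vim and Col1a2 were present at similar means in both groups. Vim, an intermediate filament of mesenchymal cells, averaged 109462 in wild type and 110672 in the knockout. The fibrillar collagen gene Col1a2 averaged 136900.0 in wild type and 161724 in the knockout. Of 21 genes in the mesenchymal list 7 were called lower, 2 higher and 12 did not pass, with a median effect of -0.37. Over all listed genes 23.6% were called lower and 22.3% higher. The labels name no cell type beyond mammary cells, and the RNA of a sphere sums over its cells, so fewer cells of a type and less RNA per cell cannot be told apart.

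Trp53 itself was still counted in the knockout. The gene (chr11:69580359-69591873 on the plus strand, mm10) averaged 4207 in wild type and 2998 in the knockout, an effect of -0.49 (authors' log2 fold change -0.49 ± 0.12, adjusted p = 2.4e-04 in the authors' deposited table). The count runs over the whole gene and the labels do not say which part was deleted, so it does not check the knockout. Wrap53, which lies head to head with Trp53 on the opposite strand, averaged 353 in wild type and 522 in the knockout and was called higher. Because the counting is not stated to use strand, reads of the overlapping neighbours cannot be told apart. The Trp53 relative Trp63 averaged 26.8 in wild type and 24.0 in the knockout and did not pass.

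Genes that p53 is known to activate were mostly lower in the knockout. Of 67 listed members of 6 target lists, 37 were called lower, 8 higher and 22 did not pass, where 23.6% of all listed genes were called lower. Their median effect was -0.89, beside 0.01 over all genes.

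In the feedback loop, 4 of 8 genes fell. Mdm2 (chr10:117688875-117710758) averaged 19005 in wild type and 3365 in the knockout, an effect of -2.50 (authors' log2 fold change -2.48 ± 0.23, adjusted p = 1.4e-25 in the authors' deposited table). Ccng1, which encodes cyclin G1, a regulator of Mdm2, averaged 20487 in wild type and 2884 in the knockout (effect -2.83). Zmat3, an RNA-binding zinc finger protein, averaged 7784 in wild type and 877 in the knockout (effect -3.15), and Trp53inp1, a stress protein that p53 induces, averaged 5719 in wild type and 1085 in the knockout (effect -2.40). The 4 genes stood 5.27- to 8.88-fold lower than in wild type. Mdm4, the Mdm2 relative that masks the p53 activation domain, was called higher, from 1578 to 2404. The ubiquitin ligases Rfwd2 and Rchy1 and the phosphatase Ppm1d did not pass, with effects of -0.17, -0.08 and 0.57.

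Among targets that stop the cell cycle, 6 of 8 listed genes fell and none rose. Cdkn1a, the p21 inhibitor of cyclin-dependent kinases (chr17:29090976-29100727), averaged 22565 in wild type and 2370.2 in the knockout, an effect of -3.25 (authors' log2 fold change -3.22 ± 0.24, adjusted p = 2.2e-39 in the authors' deposited table). Ptprv, a receptor-type phosphatase that p53 induces in mouse cells to hold them in G1, averaged 4069 in wild type and 16.6 in the knockout (effect -7.85, adjusted p = 1.2e-83 in the authors' deposited table). The knockout mean was thus 9.52-fold lower for Cdkn1a and 245-fold lower for Ptprv. The polo-like kinase gene Plk2 averaged 5684 in wild type and 1074 in the knockout and the antiproliferative gene Btg2 4096 in wild type and 941 in the knockout. The G2 regulators Rprm, with an effect of -1.66, and Sfn, with -1.11, did not pass.

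Among targets that promote cell death, 8 of 13 fell. Eda2r, a death receptor of the tumour necrosis factor family, averaged 2916 in wild type and 66.8 in the knockout (effect -5.43, adjusted p = 7.3e-91 in the authors' deposited table). Pmaip1, which encodes the BH3-only protein Noxa, averaged 1943 in wild type and 109 in the knockout (effect -4.14), and Perp, a membrane protein of desmosomes that takes part in p53-dependent death, averaged 202 in wild type and 5.53 in the knockout. Perp is also an epithelial gene, and the epithelial markers fell alongside it. The exonuclease gene Aen and the TRAIL receptor gene Tnfrsf10b fell less far, with effects of -1.84 and -1.51. Other death targets did not pass. Bbc3, which encodes the BH3-only protein Puma, averaged 559.5 in wild type and 533 in the knockout (adjusted p = 0.81 in the authors' deposited table), and the apoptosome gene Apaf1 averaged 3145 in wild type and 3065 in the knockout. Casp8 and Bid, named because theirs were the only rises in this list after the values were seen, had effects of 0.31 and 0.76.

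The repair targets were split. The incision endonuclease gene Ercc5 and the translesion polymerase gene Polk fell, with effects of -0.99 and -0.75. The translesion polymerase genes Polh and Rev3l rose, with effects of 1.48 and 0.92, as did the damage sensor gene Ddb2 (1.07). Polh averaged 534 in wild type and 1496 in the knockout. In the metabolic and antioxidant list 5 of 13 fell and 1 rose, where 23.6% of all listed genes were called lower and 22.3% higher. Phlda3, an inhibitor of Akt, averaged 6791 in wild type and 1440.2 in the knockout (effect -2.24). The lipid genes Pltp and Abca1 and the stress gene Sesn2 fell, with effects of -1.78, -0.81 and -1.52. Pank1, a kinase of coenzyme A synthesis, went the other way and averaged 126 in wild type and 556 in the knockout (effect 2.13). Among targets of other function 12 of 18 fell. The Pak4 inhibitor gene Fam212b averaged 679.6 in wild type and 14.2 in the knockout, the epoxide hydrolase gene Ephx1 5543 in wild type and 780.2 in the knockout, and the growth factor gene Tgfa 186 in wild type and 38.9 in the knockout. Cd82, a tetraspanin, was the member that rose, with an effect of 0.92.

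**Figure D1:**
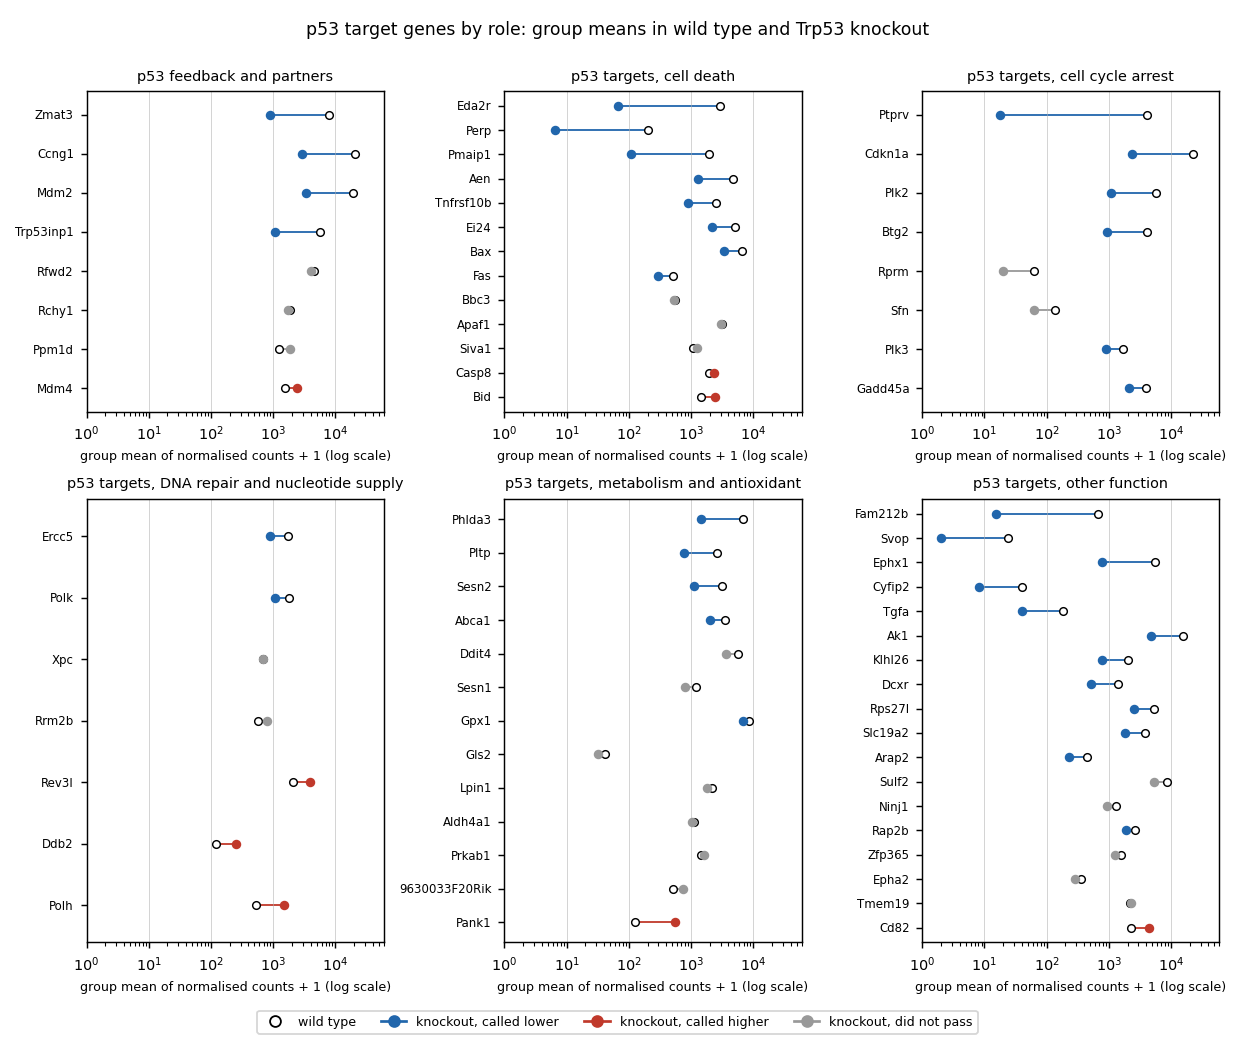
Group means of normalised counts plus 1 (log scale) for the 67 listed p53 targets in 6 panels by role. Open circles are the 3-library wild-type mean and filled circles the 2-library knockout mean, blue where called lower, red where called higher, grey where the gene did not pass; the widest gaps are those of Ptprv, Fam212b and Eda2r.

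A p53 response element was searched for in the RefSeq promoter windows (GRCm38.p6), which run from 250 bases before to 50 after each annotated start. The element was taken as a pair of 10-letter units of the known consensus at most 13 bases apart, with at most 1 mismatch in all and with the core C and G of each unit kept; it reads the same on both strands. It was present for 4 of the 55 listed targets with a window (7.27%), beside 0.718% of all 27025 genes in the RefSeq table. Among genes with a window, 0.876% of all those called lower held it, beside 0.685% of all listed genes. These 2 shares are incomplete, because 75.8% and 78.5% of the genes were matched to a window. The lists were made of known targets, so their share is a description and was not tested. The 37 of 67 listed targets called lower included all 4 targets with an element. Their elements are shown with flanks, 5′ to 3′ on the gene's strand, with the 10-letter units in capitals, because these are the targets whose element lies in the window itself. A match describes the letters and is not evidence of binding, and a target without a match may have its element elsewhere.
Cdkn1a: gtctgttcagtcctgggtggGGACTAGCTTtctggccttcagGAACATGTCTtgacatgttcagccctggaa
Ccng1: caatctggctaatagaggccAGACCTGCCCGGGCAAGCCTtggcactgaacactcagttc
Rps27l: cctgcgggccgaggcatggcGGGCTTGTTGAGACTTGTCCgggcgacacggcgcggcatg
Fam212b: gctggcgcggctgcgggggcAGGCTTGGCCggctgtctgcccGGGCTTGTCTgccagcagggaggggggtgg
The Cdkn1a stretch is chr17:29090886-29090957 on the plus strand. Its capitals mark the pair at -73 to -42 from the annotated start of this window, which was the match without a mismatch. A gene can have more than 1 annotated start (32851 windows for 27025 genes), and the distance to any other start of Cdkn1a is not given. Under the same rule GAACATGTCT also pairs, with 1 mismatch, with the tgacatgttc that directly follows it in lower case. The capitals are therefore not the only pair in this stretch, and which pair p53 uses was not tested. The Ccng1 stretch is chr11:40755442-40755501 on the minus strand, the Rps27l stretch chr9:66946276-66946335 on the plus strand, and the Fam212b stretch chr3:105705335-105705406 on the plus strand, where RefSeq lists the gene as Inka2. Rps27l, a ribosomal protein-like gene, averaged 5346 in wild type and 2516 in the knockout (effect -1.09).

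The study also holds the opposite manipulation. Nutlin-3 blocks the pocket of Mdm2 that binds p53, and the authors treated spheres of MMTV-ErbB2 mammary tumours, in which a transgenic ErbB2 is driven by the mouse mammary tumour virus promoter, with 2.5 µM for 72 h. Those libraries, 3 treated and 3 untreated, came from FVB/Hsd mice aged 12 to 15 weeks at passage 6 to 7 without infection, and share no library with the knockout comparison. The authors paired treated and untreated cultures of each tumour in their Nutlin-3 test, per the file headers, so calls with Nutlin-3 are paired while the effects printed are unpaired ratios of the group means. Of 12892 genes in both tables, 1003 (7.78%) were called higher and 917 (7.11%) lower with Nutlin-3. In the knockout 2779 of the 12892 were called lower and 3034 higher. The genes lower in the knockout and those higher with Nutlin-3 shared 549, which is 19.8% of the 2779 lower in the knockout and 54.7% of the 1003 higher with Nutlin-3. In the other direction 602 genes were higher in the knockout and lower with Nutlin-3, 19.8% of 3034 and 65.6% of 917. There were 51 genes lower in both and 63 higher in both.

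Many p53 targets moved in opposite directions in the knockout and with Nutlin-3. Of 66 members in both tables, 37 were lower in the knockout, 39 were higher with Nutlin-3, and 32 were both. Mdm2 had an effect of 1.28 with Nutlin-3, from 10486 to 25473 (adjusted p = 1.8e-29 in the authors' deposited table), and the effect of Cdkn1a was 0.87, from 11731 to 21435. Ptprv rose from 633 to 2423 with Nutlin-3, an effect of 1.94, and Perp from 25.8 to 126. Sizes differed between the settings: the Cdkn1a effect was -3.25 in the knockout and 0.87 with Nutlin-3, whereas Abca1 changed by -0.81 and 1.74. Polh and Pank1, which rose in the knockout, had Nutlin-3 effects of -0.53, called lower, and -0.22, which did not pass.

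The p53 lists hold 66 and the cell cycle lists 145 of the 12892 genes in both tables. The 276 genes that were lower in the knockout by an effect of -1 or below and higher with Nutlin-3 included 25 members of the p53 lists. Ordered by their knockout effect, the 15 lowest were Atp6v0d2, Ptprv, Gsta3, Ano3, Inpp5d, Cd80, Fndc5, Tnfrsf21, Tbc1d2, Mgam, Lce3a, Fam212b, Eda2r, Fbln7 and Hpca. Of these, Ptprv, Fam212b and Eda2r are in the p53 lists and the other 12 are not. Atp6v0d2, a subunit of the proton pump of lysosomes, averaged 5845 in wild type and 24.1 in the knockout and had a Nutlin-3 effect of 1.51. Gsta3, a glutathione transferase, averaged 969 in wild type and 5.34 in the knockout and had a Nutlin-3 effect of 2.11. Ano3, a membrane protein of the anoctamin family, averaged 1009.7 in wild type and 6.45 in the knockout, and Cd80, a costimulatory ligand of T cells, 1067 in wild type and 13.4 in the knockout; their Nutlin-3 effects were 1.64 and 1.08. Tnfrsf21, the death receptor DR6, averaged 2525 in wild type and 41.8 in the knockout. Hpca, a neuronal calcium sensor, averaged 13409 in wild type and 379 in the knockout and Fndc5, the precursor of irisin, 2049 in wild type and 33.6 in the knockout. The macrophage and myeloid list described below had a median Nutlin-3 effect of 1.32 over 15 genes, with 2 called higher and none lower. The part of cell content in the genes shared here was not tested. Of the 382 genes higher in the knockout by 1 or more and lower with Nutlin-3, 120 were in the cell cycle lists. The 10 with the highest knockout effect were Pi16, Scn9a, Fyb, Ly75, Foxred2, Aqp1, Egln3, Trim54, Mns1 and Hjurp, of which Hjurp, the chaperone that loads centromeric histone, averaged 196 in wild type and 1373 in the knockout (effect 2.80). Egln3, an oxygen-sensing hydroxylase, averaged 592 in wild type and 4752 in the knockout, and the water channel gene Aqp1 111 in wild type and 964 in the knockout.

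**Figure D2:**
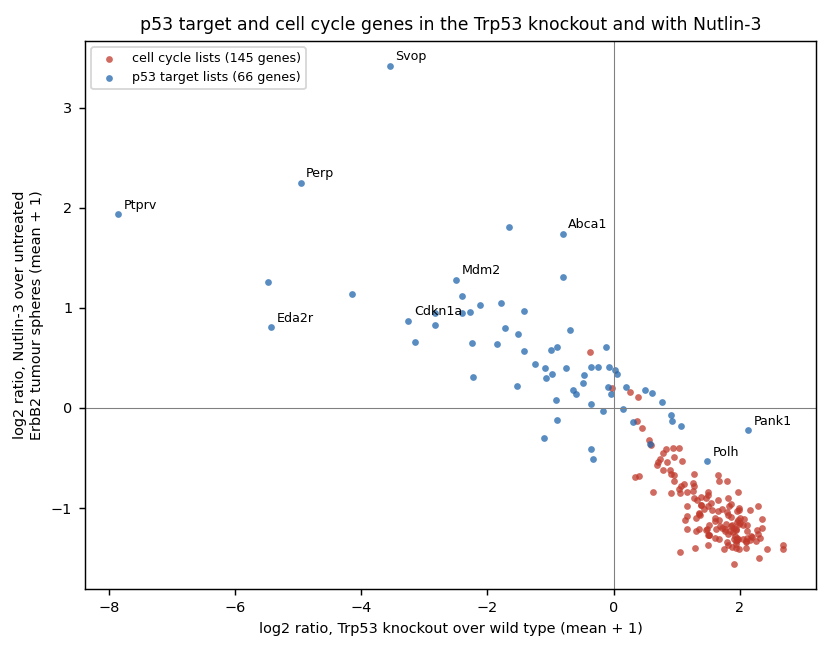
Effect in the Trp53 knockout (horizontal, log2 ratio of group means plus 1) against the effect of Nutlin-3 in ErbB2 tumour spheres (vertical, same scale), 1 point per gene, for 66 p53 targets in blue and 145 cell cycle genes in red. The blue points lie mostly at the upper left and the red points at the lower right; Mdm2 is at -2.50 and 1.28.

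Genes of the cell division cycle were higher in the knockout almost without exception. Of 145 listed members of 7 lists, 137 were called higher, none lower and 8 did not pass, where 22.3% of all listed genes were called higher. Their median effect was 1.65. In the 4 lists of mitosis, 22 of 23 kinases and regulators, 25 of 26 kinetochore and spindle genes, 12 of 12 kinesins and 9 of 9 condensation genes were called higher, and the list medians lay between 1.85 and 1.98.

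The spindle checkpoint kinase gene Bub1b averaged 817 in wild type and 5254 in the knockout, an effect of 2.68 (authors' log2 fold change 2.60 ± 0.46, adjusted p = 1.9e-07 in the authors' deposited table). Casc5, the kinetochore scaffold on which Bub1 kinases assemble, averaged 346 in wild type and 2236 in the knockout (effect 2.69). Aspm, a spindle pole protein, averaged 609.9 in wild type and 3298 in the knockout, and Ube2c, the conjugating enzyme of the anaphase-promoting complex, 832 in wild type and 4248 in the knockout. These 4 genes rose 5.1- to 6.46-fold. Other genes of mitosis rose as well. Kif14, a kinesin of cytokinesis, averaged 299.5 in wild type and 1481 in the knockout, and the mitotic kinase gene Aurka 651 in wild type and 2824 in the knockout. Top2a, the topoisomerase that untangles sister chromatids, averaged 3736 in wild type and 16090.0 in the knockout (effect 2.11), the condensin gene Ncapd2 1487 in wild type and 7598 in the knockout, and the proliferation antigen Mki67 3443 in wild type and 13730.0 in the knockout. Wee1, which restrains entry into mitosis, averaged 1339.8 in wild type and 1697 in the knockout and did not pass (adjusted p = 0.22 in the authors' deposited table).

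Replication and repair genes rose with them. In the replication list 39 of 41 were called higher, with a median of 1.26. Mcm10, which helps activate the replicative helicase, averaged 443 in wild type and 2113 in the knockout (effect 2.25), the helicase subunit gene Mcm6 1876 in wild type and 6614 in the knockout, and Uhrf1, which carries DNA methylation across replication, 2002 in wild type and 7304 in the knockout. Pole2 and Orc1 did not pass, with effects of 0.41 and 0.63. All 20 listed genes of homologous recombination and the Fanconi pathway were called higher, with a median of 1.70. Fancd2, the protein that marks crosslinks for repair, averaged 233 in wild type and 1170.4 in the knockout (effect 2.32, adjusted p = 1.1e-13 in the authors' deposited table).

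The machinery that times these genes changed unevenly. Of the cyclins and their kinases 10 of 14 rose. The S phase cyclin genes Ccne2 and Ccna2 had effects of 1.97 and 1.94, and the mitotic cyclin gene Ccnb1 1.80. The G1 cyclin genes Ccnd2 and Ccnd3 averaged 13696 in wild type and 10629 in the knockout, and 6429 in wild type and 6294 in the knockout, and did not pass. Of 19 E2F, RB and DREAM genes, 14 rose, led by E2f7 (2.09), Mybl2 (2.01) and Foxm1 (1.59), which drive or close the S and G2 programmes. Rb1, the retinoblastoma gene, was the member that fell, with an effect of -0.45, and 4 members, E2f4 and Lin37 among them, did not pass.

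Among the inhibitors of cyclin-dependent kinases the loss of Cdkn1a stood beside a rise of Cdkn2a. Cdkn2a (chr4:89274471-89294653), which encodes both p16 and the p53-stabilising p19Arf in a gene-level count that cannot separate them, averaged 2293 in wild type and 15078 in the knockout, an effect of 2.72 (authors' log2 fold change 2.71 ± 0.14, adjusted p = 3.3e-84 in the authors' deposited table). Cdkn1b, the p27 inhibitor, averaged 775 in wild type and 2073 in the knockout (effect 1.42). Cdkn2b, the p15 inhibitor encoded beside Cdkn2a, averaged 1760.3 in wild type and 1678 in the knockout and did not pass, as did Cdkn1c (-1.15) and Cdkn2c (0.81). Myc, a growth-promoting transcription factor, averaged 3033 in wild type and 5108 in the knockout (effect 0.75, adjusted p = 1.9e-10 in the authors' deposited table), and the receptor gene Erbb2 averaged 1659 in wild type and 551 in the knockout (effect -1.59).

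**Figure D3:**
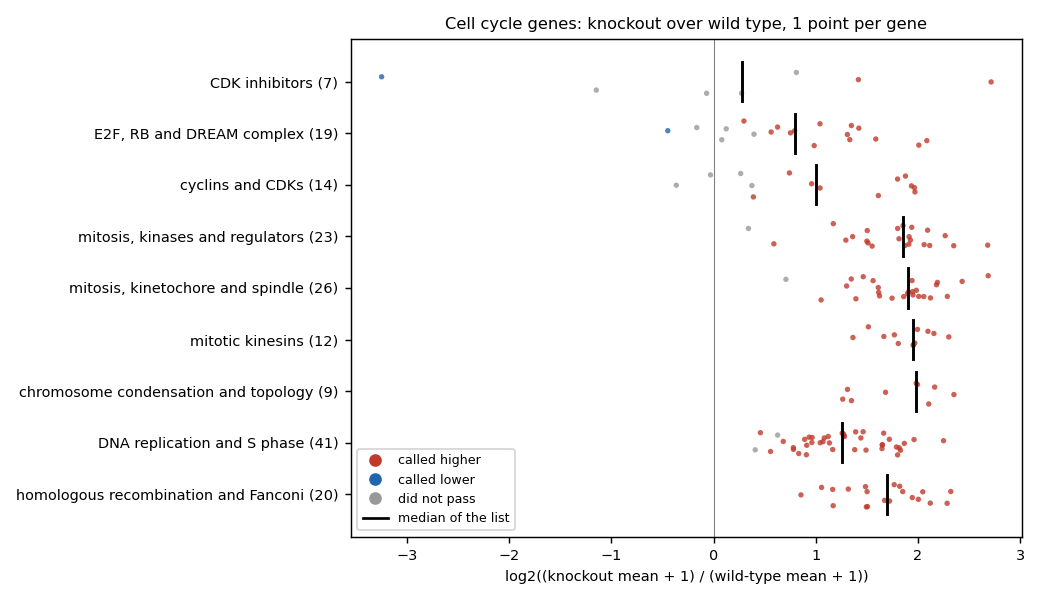
Effect (log2 ratio of knockout over wild-type means plus 1) of each listed gene in 9 cell cycle lists, red where called higher, blue where called lower, grey where not passed; bars are list medians and numbers in brackets the genes listed. The blue point farthest left is Cdkn1a at -3.25, and the mitosis lists centre near 1.95.

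Short motifs known from cell cycle promoters were counted in the same windows. The cell cycle homology region, searched as TTTGAA on both strands, was present in the window of 39 of 59 mitosis genes (66.1%), beside 20.2% of all genes in the RefSeq table, and the CCAAT box, searched as CCAAT on both strands, in 72.9% beside 41.1%. The E2F motif, searched as TTCCCGC on both strands, was present for 7 of 16 recombination and Fanconi genes (43.8%), beside 5.29% of all genes. Among the genes of the knockout table that had a window the shares of the 3 motifs in that order were 14.7%, 42.7% and 9.37%, but with 78.5% of them matched to a window these shares are incomplete. The stretches printed here are the mitosis genes with the largest effect that hold TTTGAA before the start, then the recombination genes with the largest effect that hold TTCCCGC, with the motif or its reverse complement in capitals.
Ncapd2: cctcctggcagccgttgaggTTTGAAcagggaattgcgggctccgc
Ube2c: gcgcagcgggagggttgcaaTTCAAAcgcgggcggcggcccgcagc
Kif14: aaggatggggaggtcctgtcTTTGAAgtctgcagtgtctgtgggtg
Espl1: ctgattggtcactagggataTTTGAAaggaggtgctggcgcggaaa
Fancb: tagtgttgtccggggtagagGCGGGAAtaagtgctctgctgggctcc
Bard1: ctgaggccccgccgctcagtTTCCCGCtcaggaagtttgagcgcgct
Brca2: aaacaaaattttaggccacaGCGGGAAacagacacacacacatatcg
In Espl1, the separase gene, the motif lies at -27 to -22 from the start (chr15:102296246-102296291, plus strand), and in Ube2c at -29 to -24 (chr2:164769880-164769925, plus strand); in Ncapd2 (chr6:125191684-125191729, minus strand) and Kif14 (chr1:136467600-136467645, plus strand) it lies farther upstream. The recombination stretches are chrX:164980400-164980446 on the plus strand, chr1:71103154-71103200 on the minus strand and chr5:150522433-150522479 on the plus strand. Mean levels of these repair genes were 116 in wild type and 449 in the knockout for Fancb, 151 in wild type and 537 in the knockout for Bard1 and 288 in wild type and 718 in the knockout for Brca2.

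Most markers of endothelial, myeloid and mast cells were low or listed at 0 in the knockout. Of 18 listed endothelial markers 15 fell and 1 rose, with a median effect of -5.69, and 7 had a knockout mean below 5. The share of all listed genes called lower was 23.6%. Cdh5, the cadherin of vascular junctions, averaged 1951 in wild type and 10.2 in the knockout, and Tie1, an endothelial receptor kinase, 682 in wild type and 1.46 in the knockout. Pecam1, an endothelial adhesion molecule, averaged 1659 in wild type and 22.8 in the knockout, and the endothelial transcription factor gene Sox17 was listed at 0 in the knockout beside 83.6 in wild type. Flt1, a receptor for vascular growth factors, was the marker that rose, from 2396 to 4959. Summed over the list the means were 16188 in wild type and 7602 in the knockout, and Flt1 made up most of the latter.

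Of 18 listed macrophage and myeloid markers 15 fell and 1 rose, with a median of -5.05, where 23.6% of all genes were called lower. The lysozyme gene Lyz2 averaged 2288 in wild type and 14.5 in the knockout, and the cathepsin gene Ctss 325 in wild type and 1.52 in the knockout. Tyrobp, Aif1, Emr1, C1qa and C1qb were listed at 0 in the knockout, beside wild-type means between 31.4 and 72.6. Cd53 averaged 622 in wild type and 725 in the knockout and Mrc1 72.4 in wild type and 55.3 in the knockout. Neither passed. Cd14, a receptor for bacterial lipid, rose from 342 to 811. The summed means were 5813 in wild type and 1734 in the knockout, and Cd14 and Cd53 made up most of the latter. Of 9 mast cell markers 8 fell and 1, Gata2, rose from 153 to 379. Cpa3, a mast cell protease, averaged 502 in wild type and 1.02 in the knockout. The immunoglobulin E receptor genes Ms4a2 and Fcer1a were listed at 0, beside 37.2 and 18.6 in wild type. Of 9 pericyte and smooth muscle markers 8 fell, among them the muscle filament gene Des (540.2 in wild type and 2.41 in the knockout) and Mcam (1350.2 in wild type and 8.8 in the knockout), while Rgs5 rose from 149 to 1024. Of 13 lymphocyte markers 4 are listed, with summed means of 133 in wild type and 34.3 in the knockout.

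Epithelial genes were lower as well. Of 20 listed epithelial junction genes 15 fell and none rose, with a median of -3.09, where 23.6% of all listed genes were called lower. Cdh1, the epithelial cadherin, averaged 494 in wild type and 5.43 in the knockout, and the protease inhibitor gene Spint2 316 in wild type and 2.99 in the knockout. The epithelial splicing factor gene Esrp1 averaged 131 in wild type and 1.43 in the knockout. The tight junction genes Tjp3 and Marveld3 were listed at 0, beside 52.2 and 24.4 in wild type. Tjp1, the most abundant gene of the list, averaged 2919 in wild type and 4367 in the knockout and did not pass (effect 0.58). Of 19 listed luminal genes 10 fell, among them Elf5, a factor of the secretory lineage, at 86.8 in wild type and 0.477 in the knockout. Of 13 listed basal and myoepithelial genes 7 fell, among them Myh11 (649 in wild type and 12.9 in the knockout) and Acta2 (effect -3.37), which also mark smooth muscle. Itga6, an integrin of basal cells, was the basal gene that rose, from 6129 to 11241, and Ly6a, the antigen Sca-1, the luminal one, from 2262 to 8706. Ehf, a factor of epithelial cells, averaged 162 in wild type and 937 in the knockout and did not pass (adjusted p = 0.25 in the authors' deposited table).

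Fibroblast genes were called lower about as often as all genes (23.6%). Of 17 listed, 4 fell, 2 rose and 11 did not pass, with a median of -0.34. The receptor gene Pdgfra averaged 24670.4 in wild type and 19489.8 in the knockout, Col3a1 averaged 118359 in wild type and 113961 in the knockout, and the mesenchymal factor gene Snai2 1592 in wild type and 1748 in the knockout; none passed. The elastic fibre genes Mfap5 and Fbln2 fell, from 10862 to 184 and from 220474 to 28478. Pi16, a marker of adventitial fibroblasts, rose from 326 to 10006, and Fbln1 from 2607 to 12512. Of 6 listed adipocyte genes 4 fell and 1, the fatty acid binding protein gene Fabp4, rose (4407 to 10754).

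The ErbB2 tumour spheres share passage 6 to 7 and the absence of infection with the knockout, and were compared with the same wild-type libraries. Epcam, Cdh1, Krt8, Krt14, Pecam1 and Cdh5 have no entry in the authors' deposited table for ErbB2 and are not analysed there. Over the 9 endothelial markers listed in both tables the median effect was -2.00 in the knockout and -2.45 in ErbB2 tumour spheres, and over the 11 macrophage markers -5.02 and -2.67. These medians leave out the other markers and are not comparable with those of the whole lists. In wild-type spheres carrying the Myc-ER vector, which match the empty-vector controls in passage, the medians over all 18 markers of each list were -1.51 and -1.50. The part of passage in the knockout's values was not tested.

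**Figure D4:**
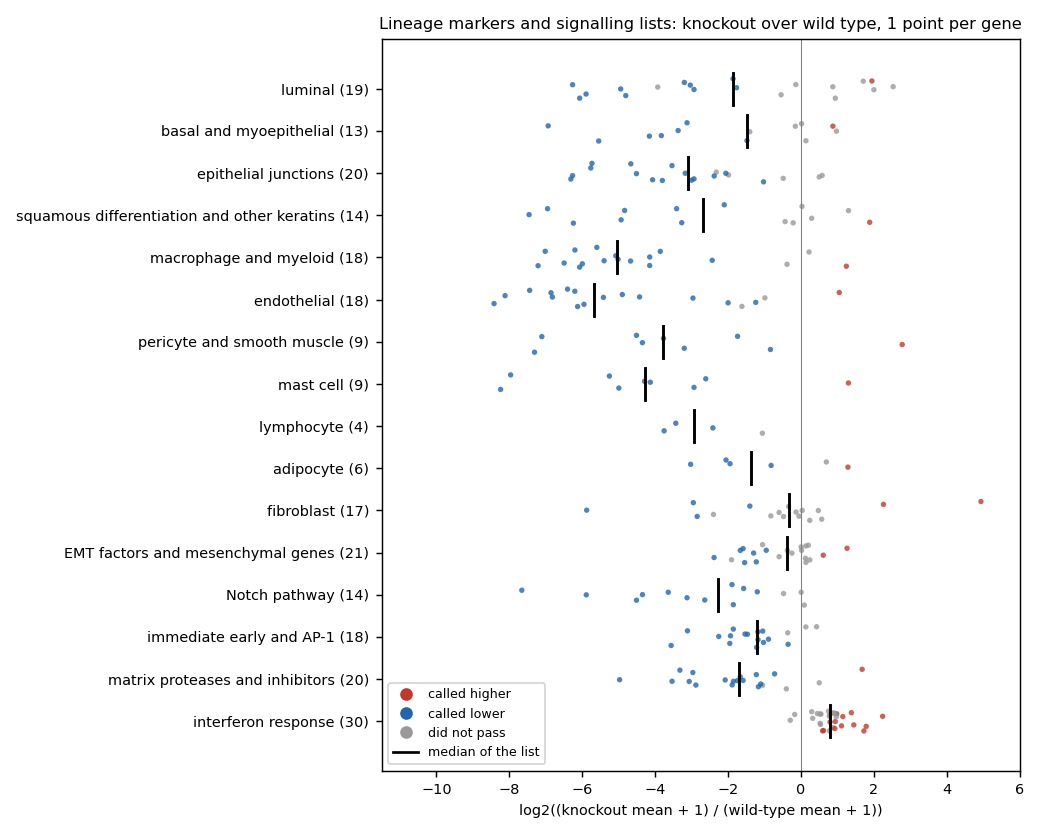
Effect (log2 ratio of knockout over wild-type means plus 1) of each listed gene in 16 lineage and signalling lists, coloured by call as red higher, blue lower and grey not passed, with list medians as bars and the number of genes listed in brackets. Endothelial and macrophage medians lie below -5, the fibroblast median at -0.34 and the interferon median at 0.79.

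The 12 largest decreases among called genes with a group mean of 1000 or more were Cxcl14, Ifi202b, Tpsab1, Gpr133, Atp6v0d2, Ptprv, Alx4, Atp9a, Cdh5, Lyz2, Mcam and Ano3. Cxcl14, an epithelial and stromal chemokine, averaged 1805 in wild type and 1.97 in the knockout (adjusted p = 2.0e-24 in the authors' deposited table). Ifi202b, an interferon-inducible protein of the p200 family, averaged 5037 in wild type and 8.26 in the knockout; its effects were -0.16 in ErbB2 tumour spheres and -0.54 with Myc-ER against the same wild-type libraries. Alx4, a homeobox gene of mesenchyme, averaged 5339 in wild type and 22.8 in the knockout, and Gpr133, an adhesion receptor, 2249.9 in wild type and 4.99 in the knockout. Tpsab1 is a mast cell tryptase, and averaged 1545 in wild type and 2.89 in the knockout.

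The 12 largest increases included Trim30d, Nxph1, Kcnip1, Dkk2, Fam5c, Adcy8, Myo5c, Hp, Slc22a23 and Pi16. Trim30d, of the tripartite motif family, averaged 10.6 in wild type and 2305 in the knockout (effect 7.63, adjusted p = 2.2e-121 in the authors' deposited table). The family has near-identical copies in mouse. Reads without a unique alignment are a separate entry, so reads shared between copies may be missing from this count. Some of these genes are best known from neurons. Nxph1, a neurexin ligand, averaged 11.8 in wild type and 1806 in the knockout, and the potassium channel partner Kcnip1 19.2 in wild type and 1156 in the knockout. Hp, the haemoglobin-binding plasma protein haptoglobin, averaged 256 in wild type and 9289 in the knockout, and Slc22a23, an orphan transporter, 205 in wild type and 7334 in the knockout. Dkk2, a secreted Wnt antagonist, averaged 51.4 in wild type and 2651 in the knockout, and its effect in ErbB2 tumour spheres was 6.73. Over the whole table, 16 genes had a mean of 500 or more in one group and below 5 in the other, 13 of them high in wild type and 3 in the knockout.

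Genes through which cells remodel the matrix around them were mostly lower. Of 20 listed proteases and inhibitors 16 fell and 1 rose, with a median of -1.71, where 23.6% of all listed genes were called lower. Plau, the urokinase that activates plasmin, averaged 43645 in wild type and 1387 in the knockout (effect -4.98, adjusted p = 1.4e-12 in the authors' deposited table). The collagenase gene Mmp13 averaged 4960.4 in wild type and 426 in the knockout, and the metalloprotease inhibitor gene Timp1 78993 in wild type and 7903 in the knockout. Serpine2, a serine protease inhibitor, was the member that rose, from 32302 to 103272. Mmp9, Timp2 and Adamts1 did not pass, with effects of -1.05, -0.40 and 0.50.

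Immediate early genes, which growth factor and stress signals switch on within minutes, were lower. Of 18 listed 15 fell and none rose, with a median of -1.20, where 23.6% of all listed genes were called lower. Fos averaged 38946 in wild type and 4499 in the knockout, and its relative Fosb 21096 in wild type and 1786 in the knockout. Egr2, a zinc finger factor, averaged 9891 in wild type and 2555 in the knockout, the nuclear receptor gene Nr4a1 4453 in wild type and 1165 in the knockout, and Klf2 1733 in wild type and 362 in the knockout. Fosl1, Fosl2 and Ier3 did not pass. The list's median effect was -1.13 in ErbB2 tumour spheres and -0.81 with Myc-ER, each against the same wild-type libraries.

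Notch genes, which carry signals between touching cells, fell in 11 of 14 cases, with a median of -2.27. The share of all listed genes called lower was 23.6%. Among ligands, Jag1 averaged 1954 in wild type and 223 in the knockout, Jag2 195 in wild type and 14.7 in the knockout, and Dll4 344 in wild type and 4.83 in the knockout, while Dll1 did not pass (221 in wild type and 222 in the knockout). Among receptors, Notch3 averaged 2315 in wild type and 100.5 in the knockout, and Notch2 did not pass (8726 in wild type and 9288 in the knockout). Among targets, Heyl averaged 399.6 in wild type and 0.985 in the knockout. Dll4, Heyl and Notch3 are expressed by vessels, whose markers fell as given above; the part of those cells in the Notch values was not tested.

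Of 20 listed Wnt genes 8 were called higher and 5 lower, where 22.3% of all listed genes were called higher and 23.6% lower. The count called lower is near the share over all genes. The ligand genes Wnt5b and Wnt7b rose from 99.5 to 1739.8 and from 88.7 to 1358, and the antagonist gene Sfrp2 from 75.6 to 586. The amplifier gene Rspo1 fell from 193 to 15.7. Axin2, a feedback target of the canonical pathway, averaged 548 in wild type and 387 in the knockout and did not pass.

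Interferon-stimulated genes were called only upward, 14 of 30, with a median of 0.79 and 16 that did not pass. Xaf1, a proapoptotic gene, averaged 1205 in wild type and 5692 in the knockout (effect 2.24), the guanylate-binding protein gene Gbp3 740.1 in wild type and 2558 in the knockout, and the antiviral gene Oas3 602 in wild type and 1993 in the knockout. Irf7 and Isg15 had effects of 0.53 and 0.45 and did not pass. The same list had a median of -2.17 in ErbB2 tumour spheres against the same wild-type libraries, and of 0.00 with Nutlin-3. Of 23 chemokines and cytokines 6 were higher and 6 lower, near the shares over all genes (22.3% and 23.6%). Ccl5 and Cxcl10, which interferon also induces, rose from 52.4 to 908 and from 418 to 3624, and Ccl11, an eosinophil attractant, fell from 2227 to 145.

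The ErbB2 and Myc-ER spheres were measured against the same wild-type libraries, and the p53 and cell cycle lists can be set side by side. The arrest list had a median effect of -1.89 in the knockout, -1.59 in ErbB2 tumour spheres and -0.09 with Myc-ER. The feedback list had medians of -1.28, -0.08 and 0.57 in that order. Ccng1 averaged 2884 in the knockout, and its effects in the ErbB2 and Myc-ER tables were -0.08 and 0.47. The 7 cell cycle lists together had a median of 1.65 in the knockout, 1.45 in ErbB2 tumour spheres and 1.36 with Myc-ER. Cdkn2a had effects of 2.72 in the knockout and -0.39 in ErbB2 tumour spheres, and with Myc-ER it went from 2252 to 4516. These tables share their controls and were normalised separately, so the differences between them were not tested.

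Effects also varied by chromosome. The median effect of the 1079 listed genes of chromosome 2 was 0.27, with 36.7% called higher and 15.1% lower. Chromosome X followed, with a median of 0.23 over 467 genes. On chromosome 4 the median was -0.27 over 840 genes, with 11.4% called higher and 37.4% lower, and on chromosome 9 it was -0.19 over 781 genes. The other 16 chromosomes lay between -0.08 and 0.15. Over windows of 75 neighbouring genes with a mean of at least 100, the running median on chromosome 2 stayed between 0.13 and 0.55 in all 829 windows and on chromosome X between 0.13 and 0.43, and on chromosome 4 it was below 0 in 606 of 609 windows. The running median also stayed above 0 in every window of chromosomes 6, 13 and 17, where its lowest values were 0.05, 0.04 and 0.01. Chromosome medians in the Nutlin-3 table lay between -0.04 and 0.07 and in the Myc-ER table between -0.12 and 0.04. In the ErbB2 table they lay between -0.11 and 0.18, with chromosomes 2, 4 and X at 0.09, -0.11 and 0.18. Xist, the RNA that silences 1 X chromosome in female cells, averaged 64632 in wild type and 65222 in the knockout and did not pass (adjusted p = 0.96 in the authors' deposited table). The cause was not tested, and gene order within a chromosome is a description.

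**Figure D5:**
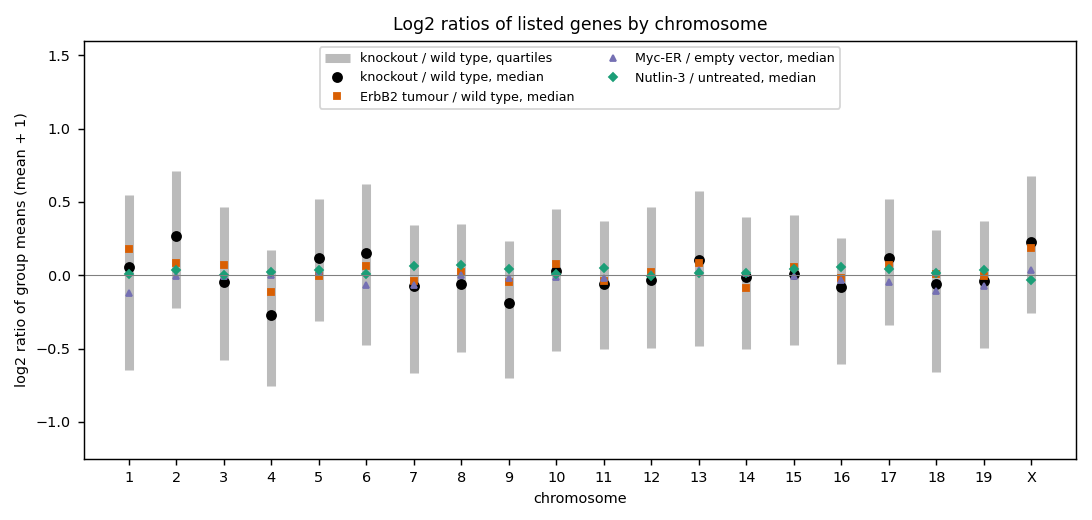
Log2 ratios of group means plus 1 over the listed genes of each chromosome. Grey bars span the quartiles and black circles mark the median for knockout over wild type, with coloured symbols for the medians in the ErbB2, Myc-ER and Nutlin-3 tables; chromosomes 2 and X lie highest at 0.27 and 0.23 and chromosome 4 lowest at -0.27.

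Genes around Trp53 were called about as often as genes at large. Of 137 listed genes whose start lies within 5 Mb of it on chromosome 11, 56 (40.9%) were called, 25 higher and 31 lower, beside 45.9% over all genes, and their median effect was -0.04. The neighbours with the largest decreases were genes of muscle: Myh8 averaged 263 in wild type and 1.43 in the knockout, and Myh3 314 in wild type and 2.89 in the knockout. Among those that rose were Xaf1, described above, the non-muscle myosin gene Myh10 (2702 in wild type and 8689.8 in the knockout) and Ntn1, the guidance factor netrin (4633 in wild type and 17309 in the knockout).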

How the data were processed

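RNA sequencing data were taken as the authors deposited them, as one table for each comparison. Per the file headers, each table gives the mean normalised counts of both conditions (a signal per gene, not raw counts), the log2 fold change, p-value and adjusted p from the authors' DESeq2 run, and lists genes with a mean above 10. The submitters' processing notes name CASAVA 1.9, TopHat2 2.0.8, Bowtie2 2.1.0, SAMtools 0.1.18, HTSeq 0.5.3p9, DESeq2 1.10.1 and the mm10 build. Libraries were made from polyA RNA, per the labels' protocols. Depth per library is not known, because the tables hold means alone. The p-values come from the authors' DESeq2 model over these libraries, and the spread of each gene between them is not shown. The 3 entries that name no gene held 29.7% of the summed wild-type mean and 28.2% of the summed knockout mean and were left out.

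From the means, the effect was computed as the log2 ratio after adding 1, with Python 3.11.15, pandas 2.3.3 and scipy 1.17.1, and calls used the authors' adjusted p below 0.05 over all genes listed. The deposited log2 fold change was smaller in size than the ratio of means for 6104 of the 6745 called genes. The standard error came from the authors' log2 fold change and p-value. The effect formula, the standard error and the motif search were tested on simulated data. The authors' adjusted p, on which the calls rest, was taken as given and was not part of that test. Chromosomes and coordinates came from GENCODE M21, matched by symbol for 93.8% of genes, and promoter sequences from the RefSeq GRCm38.p6 table; motif shares of a list are given where at least 80% of it had a promoter.

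Genes named were Trp53, Mdm2, Cdkn1a, Cdkn2a, Myc, Erbb2 and Xist; the 12 called genes with the largest increase and the 12 with the largest decrease among those with a group mean of 1000 or more; from each list up to 5 called genes of largest effect and up to 3 that did not pass; 15 genes lower in the knockout and higher with Nutlin-3 and 10 of the reverse; and called genes within 5 Mb of Trp53. Other list members, such as Casp8, Bid, Rb1, Cd82, single members that went against their list, markers of common use and the genes whose promoter is printed, were chosen after their values were seen. Some genes that the rule names are not reported here. The knockout comparison and the gene lists were chosen with earlier results of these data known. Other thresholds, pseudocounts and scalings were tried as alternatives.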

Additional observations from a re-analysis of the deposited data

How the results depend on the processing

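Of 70 values recomputed under other pseudocounts, a minimum mean, stricter thresholds, the authors' log2 fold change and other scalings, 30 are counts that follow the authors' adjusted p and were the same by construction. Of the other 40, 34 kept their direction and call or stayed within 1.5 times the count, and none reversed. Requiring an effect of at least 1 in size left 1368 genes called higher and 2073 lower, left 55 genes lower in the knockout and higher with Nutlin-3 where both effects had to reach that size, and ended the call of Trp53 at -0.49. An adjusted p below 0.01 left 339 genes in that overlap. A minimum mean of 100 left 19 endothelial and macrophage markers lower. These settings test fewer genes or set a stricter rule. The p53 targets called lower numbered between 27 and 37 and the cell cycle genes called higher between 120 and 137. Rescaling to equal sums of means shifts every effect by 0.13 on the log2 scale.

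No paired analysis was possible because the knockout table gives group means alone. For the same reason leaving out a replicate, and refits with edgeR or DESeq2 under another normalisation, were not run, so a result resting on 1 of the 2 knockout libraries cannot be seen. Low means limit what can be said of genes under about 10 counts.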

Other observations

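Several metabolic lists were called mostly upward, and others downward, near the shares over all genes or hardly at all. Those shares were 22.3% higher and 23.6% lower. Of 25 listed genes of the cholesterol synthesis list 19 rose and none fell, with a median effect of 0.69: the thiolase gene Acat2 averaged 2540.3 in wild type and 7593 in the knockout, the isomerase gene Idi1 8009.7 in wild type and 17923 in the knockout, and the cholesterol carrier gene Stard4 1241 in wild type and 3144 in the knockout. Of 13 listed genes of fatty acid synthesis 8 rose, among them Fasn, the fatty acid synthase (16202 in wild type and 35950.3 in the knockout), and Acss2 (605 in wild type and 2337 in the knockout), and the desaturase gene Scd1 fell (39368 in wild type and 20397 in the knockout). The medians of both lists in ErbB2 tumour spheres, against the same wild-type libraries, were 0.95 and 0.77. Of 22 genes of one-carbon and nucleotide synthesis 14 rose, led by Shmt1 (421 in wild type and 1367 in the knockout), Mthfd1 (1454 in wild type and 3173 in the knockout) and Cad (3102 in wild type and 6473 in the knockout). Ribosome biogenesis genes rose in 18 of 30 cases by smaller steps (median 0.41), led by Dkc1 (1356 in wild type and 3362 in the knockout), and 29 of 34 ribosomal protein genes did not pass. Of 26 glycolysis and hypoxia genes 4 rose and 7 fell, near the shares over all genes, with a median of -0.14. Of 19 lysosome genes 12 fell and none rose, among them the cathepsin genes Ctsk (90224 in wild type and 18281 in the knockout) and Ctsd (131761 in wild type and 47877 in the knockout), and 15 of the 19 were called higher with Nutlin-3. Of 13 listed NRF2 and glutathione genes 6 fell, among them the haem oxygenase gene Hmox1 (21244 in wild type and 3623 in the knockout).

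Developmental and growth factor genes were more mixed, where 22.3% of all listed genes were called higher and 23.6% lower. The linked imprinted genes Igf2 and H19 both fell, from 369 to 14.2 and from 5209.9 to 479, and Grb10, an imprinted brake on insulin signalling, from 8358 to 2689. Peg10 and Nnat rose, from 459 to 1948 and from 67.4 to 273. Of 22 listed imprinted genes 3 rose, 6 fell and 13 did not pass, near the shares over all genes. Among binding proteins of insulin-like growth factors, Igfbp7 fell from 5924 to 707, and Igfbp4 rose from 2430.1 to 10201. Of 35 listed homeobox and related factors 23 did not pass, which included most Hox genes. In that list 5 rose and 7 fell, each below the share over all genes. Hoxa11 rose from 18.4 to 236, and Msx1 fell from 77.9 to 6.77. The basement membrane collagen genes split by chain: Col4a1 averaged 286481 in wild type and 124623 in the knockout and was called lower, whereas Col4a5 averaged 855 in wild type and 2607 in the knockout and Col4a6 114 in wild type and 696 in the knockout, both called higher. Of 20 listed genes of TGF-beta, BMP and activin signalling 6 rose and 11 fell. The related inhibitor genes Id2 and Id3 parted, Id2 falling from 3114 to 595 and Id3 rising from 580.3 to 1850.2. Of 32 listed oxidative phosphorylation genes 27 did not pass.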
